A study of Rattus norvegicus with 9 samples.

Results

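Solute carriers are the membrane proteins that move sugars, acids, ions, metals, vitamins and nucleotides across the plasma membrane and the membranes of organelles. Their transcripts were followed in cultured rat horizontal basal cells, which in the olfactory epithelium are quiescent reserve stem cells. The cultured cells were treated with phorbol 12-myristate 13-acetate (PMA), a diacylglycerol mimic that switches on protein kinase C. Members were chosen by name and by their measured read counts: all gene symbols made of Slc, a family number, the letter a and a member number that had a mean of at least 50 unstranded reads over the 9 libraries. The amino acid transporters Slc6a14, Slc7a5, Slc3a2, Slc1a5, Slc38a2, Slc7a1 and Slc7a11 and the glucose transporter Slc2a1 were left out by name. Of 316 symbols of that form among 17315 genes in the tables, 8 were left out, 171 fell under the limit and 137 were members. The members carry 40 family numbers, of which 13 have 1 member. By function 133 are carriers, while Slc9a3r1 and Slc9a3r2 are scaffold proteins. Neither Slc7a6os, named for its neighbour Slc7a6, nor Slc4a1ap, named for Slc4a1, is a carrier.

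The cells came from the olfactory epithelium of strain SD rats and were a primary culture at passage 7. The groups were vehicle (0.1% DMSO, labelled time 0), 50 nM PMA for 6 h and 50 nM PMA for 12 h, with 3 libraries each. No vehicle library carries a time of 6 h or 12 h, so PMA and time in culture cannot be told apart. Nothing in the labels ties the replicates to different cultures or different animals. P-values therefore measure only the spread between these libraries, which may be technical.

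Libraries held 13601635 to 19001819 reads in genes, and every member had a read in every library. The basal cell markers Krt5 and Krt14 were abundant in all libraries (Krt5 at 5920 to 7510 CPM in vehicle and 344 to 440 CPM at 6 h), and all 8 listed basal markers were detected, with Sox2 at 2.46 to 3.39 CPM in vehicle. Among markers of other cells, under 1 CPM in every group were 5 of 8 neuronal, 5 of 8 sustentacular and gland, 7 of 9 fibroblast and pericyte, 4 of 6 immune and 6 of 7 endothelial and glial genes. Gap43, Stmn2, Cyp2g1, Ermn, Col1a2, Lum, Pdgfrb, Rgs5, Ptprc and Sox10 were at 0 in all libraries. The 8 basal markers summed to 14800 to 17000 CPM in vehicle, 2490 to 3000 CPM at 6 h and 3920 to 4570 CPM at 12 h, and 7 of 8 fell at 6 h and 6 at 12 h. The summed level of the sustentacular and gland markers, mostly Krt8, was 1210 to 1410 CPM in vehicle, 1950 to 2010 CPM at 6 h and 2190 to 2530 CPM at 12 h. That of the immune markers, mostly Cd68, was 26.7 to 29.2 CPM, 70.4 to 72.8 CPM and 83.6 to 95.7 CPM. The neuronal markers, mostly Adcy3, summed to 180 to 211 CPM, 108 to 116 CPM and 185 to 200 CPM. The fibroblast and pericyte markers summed to 4.51 to 6 CPM, 2.06 to 3.82 CPM and 1.97 to 3.64 CPM and the endothelial and glial markers to 0.425 to 0.863 CPM, 0.881 to 1.68 CPM and 2.11 to 4.16 CPM. The part of these shifts in the results was not tested. In such bulk samples, fewer cells of a type and less RNA per cell cannot be told apart. The vehicle libraries stood apart from each other in 17 genes of G2 and mitosis, with a mean log2 CPM of 4.19, 5.29 and 6.22. It was 0.717 to 0.992 at 6 h and 0.364 to 0.595 at 12 h. Mki67, a gene of cycling cells, was at 55.2, 120 and 217 CPM in the vehicle libraries. Below, vehicle levels that rise in this order are pointed out for a few members only. Other members share the order, such as Slc12a2, Slc16a1 and Slc27a3, and its part was not tested for any member.

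The carriers work in a few recurring ways. Facilitators let a solute run down its gradient, as most SLC2 sugar transporters do. Cotransporters and exchangers tie uphill transport to sodium, protons, chloride or bicarbonate, and the gradients themselves are kept by the sodium pump. Zinc moves into the cytosol through SLC39 proteins (ZIP) and out of it through SLC30 proteins (ZnT). Most SLC25 proteins exchange metabolites across the inner mitochondrial membrane.

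Promoters of 4 members are shown because their genes changed in ways described further on: a neighbouring SLC17 pair that rose together, and a zinc exporter and a zinc importer that were both lower than vehicle at 12 h. Each is the 250 bases before the RefSeq transcription start in the GRCr8 assembly, 5′ to 3′ on the gene's strand, with matches on either strand in capitals. The capitals mark TGANTCA, the core bound by AP-1, in the first pair and TGCACNC or TGCGCNC, the core of metal response elements, in the second pair. The windows are chr17:41681175-41681424 (minus strand) for Slc17a1, chr17:41723110-41723359 (minus strand) for Slc17a3, chr13:106021769-106022018 (plus strand) for Slc30a1 and chr3:97503045-97503294 (minus strand) for Slc39a13.
Slc17a1: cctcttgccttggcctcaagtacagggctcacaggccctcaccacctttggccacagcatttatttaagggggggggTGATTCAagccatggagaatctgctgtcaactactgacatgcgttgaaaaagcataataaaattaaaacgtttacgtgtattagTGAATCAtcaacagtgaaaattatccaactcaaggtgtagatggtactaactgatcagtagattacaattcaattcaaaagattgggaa
Slc17a3: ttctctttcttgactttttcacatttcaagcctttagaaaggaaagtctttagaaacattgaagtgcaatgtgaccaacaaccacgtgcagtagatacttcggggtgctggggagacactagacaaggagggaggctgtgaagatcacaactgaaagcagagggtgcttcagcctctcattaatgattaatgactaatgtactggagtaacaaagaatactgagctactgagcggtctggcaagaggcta
Slc30a1: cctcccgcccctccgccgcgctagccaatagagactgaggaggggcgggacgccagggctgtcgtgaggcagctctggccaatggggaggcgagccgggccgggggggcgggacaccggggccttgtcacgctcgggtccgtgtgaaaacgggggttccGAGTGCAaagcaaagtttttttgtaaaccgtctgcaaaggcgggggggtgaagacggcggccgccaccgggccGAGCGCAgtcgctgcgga
Slc39a13: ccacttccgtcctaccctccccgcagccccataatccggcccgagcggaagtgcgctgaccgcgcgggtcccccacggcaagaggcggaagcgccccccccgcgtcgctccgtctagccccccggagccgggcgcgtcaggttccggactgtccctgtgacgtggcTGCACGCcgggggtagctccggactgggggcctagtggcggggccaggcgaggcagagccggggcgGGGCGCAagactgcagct

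Slc17a1 held the AP-1 core at -173 and -89 from the start site, and Slc17a3 held no AP-1 core in this window. Slc30a1 held the metal response core at -91 and -18, and Slc39a13 held it at -84 and -18. A window was present for 115 of the 137 members. The AP-1 core was in 6 of these 115 windows (5.22%) and in 6.36% of the 27457 windows of all genes. It was in 5.71% of windows of members called higher at 6 h and 6% of those called lower. At 12 h these shares were 7.89% and 4.26%. The metal response core was in 35 of the 115 (30.4%), against 21.2% of all windows, and in 7 of 14 windows of zinc carriers. The E-box CACGTG, bound by factors such as Myc and Tfeb, was in 17 of the 115 (14.8%), that of Slc17a3 among them, against 5.79% of all windows. The 27457 windows cover more genes than the 17315 counted in these libraries, whereas every member was detected, so the sets are unlike. These matches are descriptions of letters and no test was made of them.

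Levels are given in CPM, read counts scaled to a common library total with TMM, in the order of replicates 1, 2 and 3. Differences are log2 fold changes ± SE from edgeR's quasi-likelihood F test over 10128 genes, with Benjamini-Hochberg adjusted p, and a member is said to have risen or fallen where the adjusted p was under 0.05. All 137 members were among the genes tested.

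After 6 h in PMA, 38 members rose and 63 fell against vehicle, 101 in all, while 76.8% of all genes tested were called (37.8% higher and 39.0% lower). After 12 h, 42 rose and 59 fell, again 101 in all, against 75.8% of all genes (37.7% higher and 38.2% lower). Both comparisons use the same vehicle libraries. The counts of role groups and families given below stand beside these same shares of all genes and are descriptions. From 6 h to 12 h, 45 rose and 22 fell, 67 in all, against 51.1% of all genes (25.3% higher and 25.8% lower). The median log2 fold change of the members was -0.24 at 6 h and -0.17 at 12 h, beside -0.03 and -0.02 over all genes tested. The groups did not overlap in 103, 106 and 77 members in the 3 comparisons, against 79.0%, 78.7% and 58.0% of all genes. The limit on mean reads was met in every group by 117 members. The other 20 passed it through the groups where they were higher, so these counts are a description and read no further. Of the 20, Slc7a7, Slc17a1, Slc23a3, Slc25a45 and Slc26a9 were under it in vehicle. Slc9a5, Slc10a7, Slc25a15, Slc43a2 and Slc46a1 met it in vehicle alone. Slc18a2, Slc25a26, Slc25a27, Slc25a35, Slc25a40, Slc26a2, Slc38a1 and Slc40a1 were under it at 12 h and Slc29a4 at 6 h. The choice of these members rests in part on the differences given for them below. With any 1 library left out, 94 to 101 members were called at 6 h, 94 to 104 at 12 h and 58 to 67 between the times. Below, where a call depended on 1 library, the log2 fold change found when that library alone was left out stands in brackets after its name.

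The balance of rises and falls depended on how library totals were scaled. The reads of the members made up 0.914% to 0.927% of all gene reads in vehicle, 0.662% to 0.674% at 6 h and 0.645% to 0.670% at 12 h. In TMM-scaled CPM the members summed to 6970 to 7200, 7280 to 7670 and 7560 to 7620, with TMM factors of 1.28 to 1.31 in vehicle and 0.848 to 0.911 with PMA. Upper-quartile scaling moved the median of all genes from -0.03 to -0.29 at 6 h and from -0.02 to -0.29 at 12 h, and library totals alone moved it to -0.57 and -0.60. Under upper-quartile scaling 27 members rose and 77 fell at 6 h and 35 rose and 77 fell at 12 h. Under library totals alone 21 rose and 97 fell at 6 h and 18 rose and 95 fell at 12 h. Small rises are thus relative to the other genes, and where a rise of a member or listed gene against vehicle given below did not hold under these scalings, that is stated beside it.

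**Figure D1:**
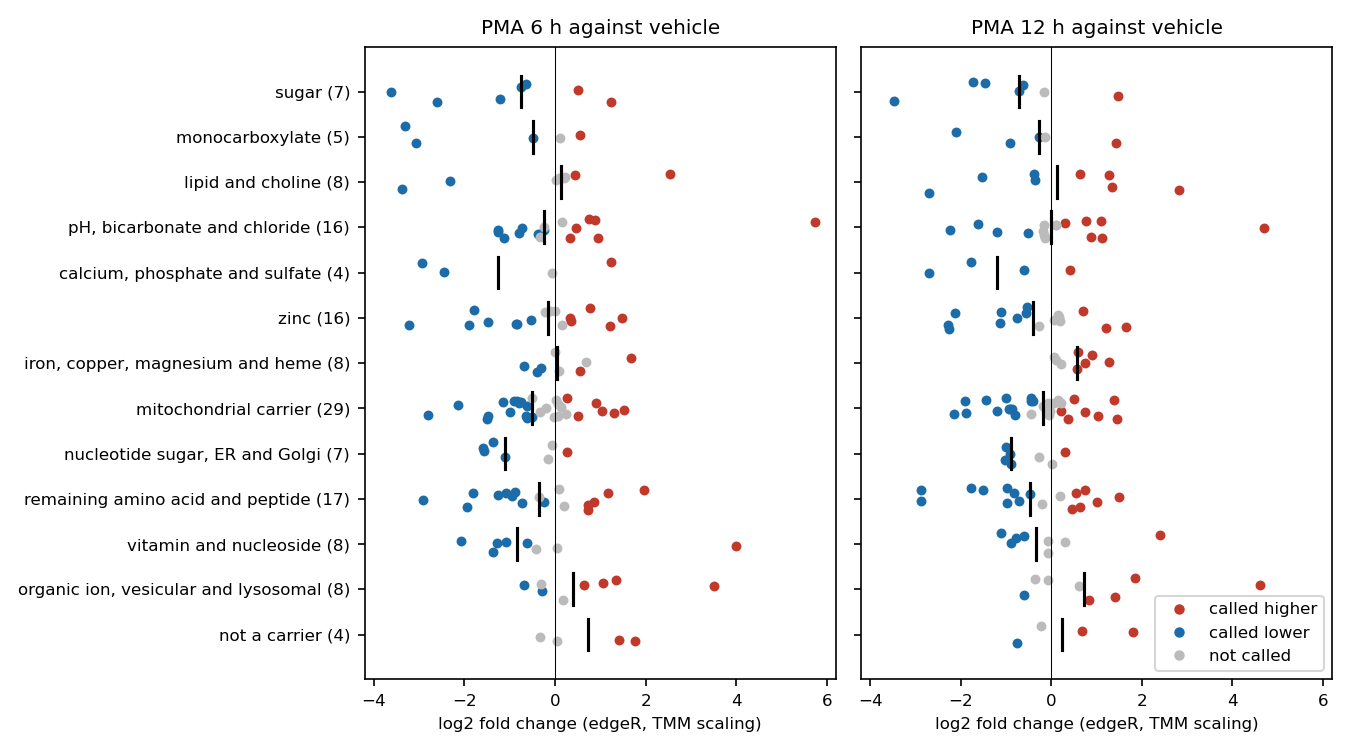
Log2 fold change of each of the 137 members (x axis) in its role group (y axis, number of members in brackets), at 6 h and 12 h against vehicle. Each point is 1 member, coloured by its call, and black bars are group medians. All values are under TMM scaling, and the medians over all genes tested were -0.03 and -0.02. The lowest group median was that of the 4 calcium, phosphate and sulfate carriers (-1.26 and -1.19). The medians of nucleotide sugar carriers (-1.10 and -0.88) and sugar carriers (-0.75 and -0.72) also lie left of 0. Under this scaling the organic ion group (0.41 and 0.73) lies right of it.

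Among the sugar carriers (SLC2, SLC5 and SLC50), 2 rose and 5 fell at 6 h and 1 rose and 5 fell at 12 h, of 7. Slc2a5, the fructose transporter GLUT5, was at 53, 49.9 and 43.9 CPM in vehicle, 3.18, 4.99 and 3.82 CPM at 6 h and 3.88, 4.87 and 4.51 CPM at 12 h. Every PMA library lay under every vehicle library, a fall of 12.3-fold at 6 h (-3.62 ± 0.16, adjusted p = 1.8e-12) and 11.1-fold at 12 h (-3.47 ± 0.16, adjusted p = 3.5e-12). Slc2a9, a urate transporter, was at 21.1, 28.4 and 36 CPM in vehicle, 5.6, 4.11 and 4.22 CPM at 6 h and 4.97, 12.4 and 8.67 CPM at 12 h. It fell by 6 h (-2.61 ± 0.31, adjusted p = 8.6e-06), and its vehicle levels stood in the same order as the mitotic genes, whose part in the result was not tested. Its rise from 6 h to 12 h (0.90 ± 0.32, adjusted p = 0.036) was not called without replicate 2 or 3 of PMA 6 h (0.83, 0.84), or replicate 2 or 3 of PMA 12 h (0.54, 0.90). Slc2a6, a hexose transporter of lysosomes, went the other way, from 5.39, 5.72 and 6.69 CPM in vehicle to 16.8, 14 and 11.3 CPM at 6 h and 15, 19 and 15.3 CPM at 12 h. The PMA libraries were all above vehicle (1.24 ± 0.18, adjusted p = 7.7e-06 at 6 h and 1.47 ± 0.18, adjusted p = 1e-06 at 12 h). Its span overlaps that of Cacfd1 in GRCr8, and the unstranded column cannot part overlapping reads by strand. The spans of 36 members overlap a protein-coding gene there, and the overlap is named here for only some of them. Slc16a3, Slc25a14, Slc27a1, Slc31a1 and Slc44a3 are among the others. Slc2a8, an intracellular glucose transporter, fell at 6 h (-0.64 ± 0.22, adjusted p = 0.013) and did not pass at 12 h (-0.16 ± 0.21, adjusted p = 0.52), with 6.26, 6.06 and 6.9 CPM in vehicle, 4.5, 4.19 and 3.64 CPM at 6 h and 5.85, 4.58 and 6.85 CPM at 12 h. Slc50a1, a sugar uniporter of the SWEET family, fell at both times (-0.75 ± 0.17, adjusted p = 0.00055 and -0.72 ± 0.17, adjusted p = 0.00088). Slc5a6, which shares its family number with the sodium-glucose carriers but takes up biotin and pantothenate, fell as well (-1.22 ± 0.15, adjusted p = 7e-07 and -1.46 ± 0.15, adjusted p = 1e-07). The left-out glucose transporter Slc2a1 was at 2210, 2210 and 1950 CPM in vehicle and 863, 811 and 999 CPM at 12 h (-1.25 ± 0.10, adjusted p = 2.5e-09).

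In the monocarboxylate family SLC16, 1 of 5 members rose and 3 fell at each time. Slc16a1 (MCT1), which carries lactate and pyruvate, rose from 250, 270 and 280 CPM in vehicle to 403, 397 and 379 CPM at 6 h and was at 243, 242 and 248 CPM by 12 h. All 6 h libraries stood above both other groups (0.56 ± 0.07, adjusted p = 9.1e-07 against vehicle and -0.69 ± 0.07, adjusted p = 4.1e-07 from 6 h to 12 h), although with library totals alone the rise was no longer called. Slc16a3 (MCT4), the lactate exporter of glycolytic cells, was at 151, 167 and 158 CPM in vehicle, 118, 130 and 94.2 CPM at 6 h and 126, 122 and 149 CPM at 12 h. It fell slightly (-0.48 ± 0.11, adjusted p = 0.00074 at 6 h and -0.26 ± 0.11, adjusted p = 0.035 at 12 h), though at 12 h not without replicate 2 or 3 of vehicle (-0.23, -0.26), or replicate 1 or 2 of PMA 12 h (-0.22, -0.20). Slc16a13 fell from 76.2, 83.2 and 69.8 CPM to 8.44, 8.74 and 5.9 CPM at 6 h and 15.6, 16.6 and 21.4 CPM at 12 h (-3.32 ± 0.15, adjusted p = 3.2e-12 and -2.10 ± 0.14, adjusted p = 5.4e-10). Its neighbour Slc16a11 did not pass the test at 6 h (0.12 ± 0.12, adjusted p = 0.38) and rose by 12 h, from 29.3, 35.9 and 33.8 CPM to 85.5, 76.4 and 104 CPM (1.42 ± 0.12, adjusted p = 8e-09). The spans of these last genes overlap in GRCr8, so reads of the 2 could be mixed or dropped, and their values are uncertain. Basigin (Bsg), the chaperone that brings MCT1 and MCT4 to the cell surface, rose at both times (0.57 ± 0.10, adjusted p = 9.9e-05 and 0.93 ± 0.10, adjusted p = 5e-07), although with library totals alone the 6 h rise was not called. Embigin (Emb), the partner of MCT2, fell (-0.97 ± 0.17, adjusted p = 6.5e-05 and -1.20 ± 0.18, adjusted p = 8.3e-06).

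**Figure D2:**
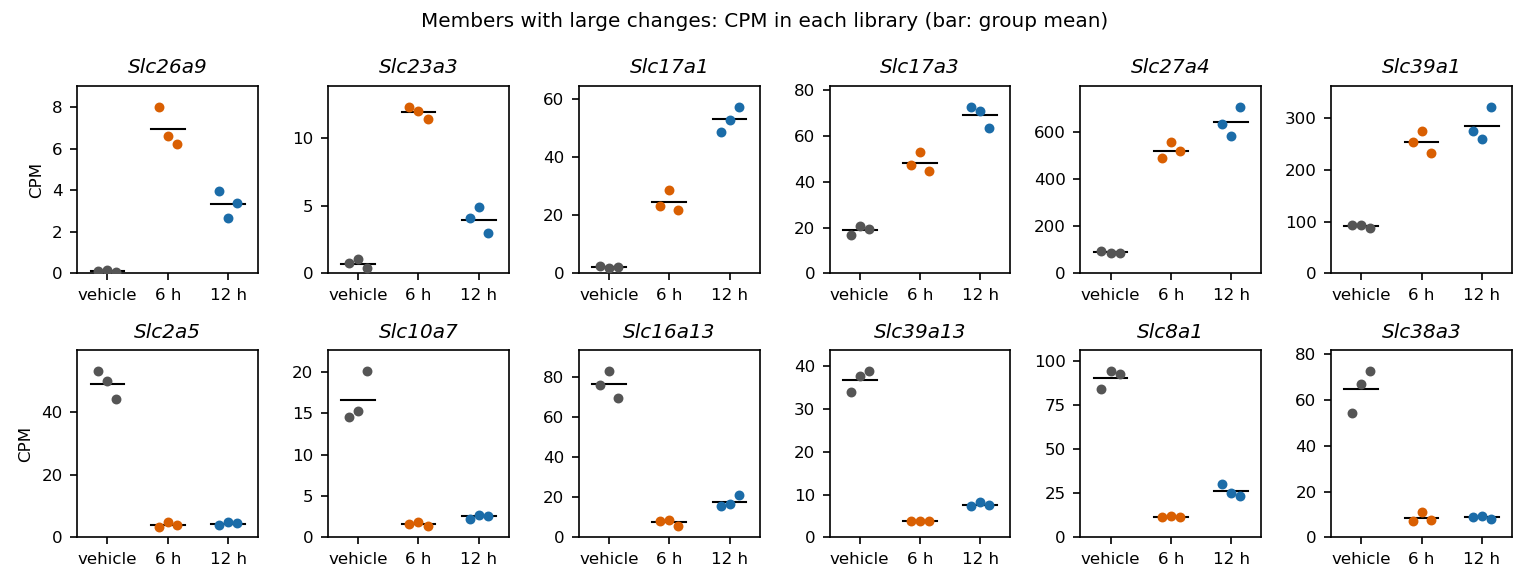
CPM of 12 members with large changes in each of the 9 libraries (y axis from 0, a separate scale for each gene; x axis, the 3 groups; black bars, group means). The upper row rises with PMA, with Slc26a9 and Slc23a3 highest at 6 h and Slc17a1 highest at 12 h, and the lower row falls, with Slc16a13, Slc39a13 and Slc8a1 partly restored at 12 h.

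Lipid and choline carriers (8 members) moved in both directions, with 2 rises and 2 falls at 6 h and 4 of each at 12 h. Slc27a4 (FATP4), which takes up and activates long-chain fatty acids and is needed for the skin barrier, was at 96.1, 87.4 and 87.8 CPM in vehicle, 488, 556 and 518 CPM at 6 h and 634, 585 and 707 CPM at 12 h. No libraries overlapped between groups, and it was 5.76-fold higher at 6 h (2.53 ± 0.09, adjusted p = 4.7e-14) and 7.1-fold higher at 12 h (2.83 ± 0.09, adjusted p = 1.6e-14). Its relative Slc27a3 fell, from 72.1, 83.4 and 88.5 CPM to 15, 17.3 and 16.7 CPM and 23.4, 31.6 and 29.4 CPM (-2.32 ± 0.12, adjusted p = 1.5e-11 and -1.53 ± 0.12, adjusted p = 2.6e-09). Slc27a1 (FATP1) did not pass the test at 6 h (0.09 ± 0.11, adjusted p = 0.46) and was lower at 12 h (-0.36 ± 0.11, adjusted p = 0.0076), a call lost without replicate 2 of PMA 12 h (-0.22). Slc10a3 did not pass at 6 h (0.19 ± 0.14, adjusted p = 0.24) and was lower at 12 h (-0.39 ± 0.15, adjusted p = 0.023), though not without replicate 2 of vehicle (-0.38), or replicate 1 or 3 of PMA 12 h (-0.30, -0.34). Slc10a7, a member of the bile acid carrier family that acts in the secretory pathway, was at 14.5, 15.3 and 20.1 CPM in vehicle, 1.59, 1.84 and 1.39 CPM at 6 h and 2.25, 2.76 and 2.6 CPM at 12 h. It was far below vehicle in all PMA libraries (-3.38 ± 0.22, adjusted p = 3e-10 and -2.71 ± 0.21, adjusted p = 3.4e-09). All 3 choline transporter-like genes were higher at 12 h: Slc44a1 at 359, 372 and 353 CPM against 217, 227 and 257 CPM in vehicle (0.63 ± 0.07, adjusted p = 4.9e-07), Slc44a2 (1.35 ± 0.16, adjusted p = 7.8e-07) and Slc44a3 (1.27 ± 0.28, adjusted p = 0.00063). With library totals alone the 12 h rise of Slc44a1 was not called. At 6 h Slc44a2 passed (0.44 ± 0.16, adjusted p = 0.019), but not under the other 2 scalings or without replicate 2 or 3 of vehicle (0.43, 0.32), or replicate 3 of PMA 6 h (0.20). Slc44a3 did not pass at 6 h (0.22 ± 0.29, adjusted p = 0.51). The 6 h value of Slc44a1, which did not pass (0.03 ± 0.07), had the opposite sign under both.

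The carriers of chloride, bicarbonate and protons (SLC4, SLC9, SLC12 and SLC26, without the scaffolds) had 16 members, of which 6 rose and 7 fell at 6 h and 6 rose and 4 fell at 12 h. Slc26a9, an epithelial chloride transporter, had 8 reads over the 3 vehicle libraries, at 0.129, 0.172 and 0.0531 CPM, and then 8.02, 6.61 and 6.24 CPM at 6 h and 3.95, 2.69 and 3.38 CPM at 12 h. Its log2 fold change of 5.75 ± 0.40 was the largest rise among the members (adjusted p = 5e-10). It was lower at 12 h than at 6 h (-1.06 ± 0.27, adjusted p = 0.0036), and with a mean of 50.7 reads it only just met the limit. Slc26a2, a sulfate transporter, fell in both steps, from 8.63, 11.6 and 10.9 CPM to 5.33, 4.41 and 3.41 CPM and 2.38, 2.69 and 1.47 CPM (-1.25 ± 0.24, adjusted p = 0.00013 at 6 h and -2.23 ± 0.26, adjusted p = 4.7e-07 at 12 h). Slc26a6, an anion exchanger whose span overlaps Celsr3 in GRCr8, also fell (-0.73 ± 0.16, adjusted p = 0.00052 and -1.20 ± 0.17, adjusted p = 4.6e-06).

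Of the 5 cation-chloride cotransporters (SLC12), which set cell volume and chloride, 2 fell at 6 h and rose again from 6 h to 12 h. Slc12a2 (NKCC1), which brings chloride in with sodium and potassium, was at 193, 201 and 225 CPM in vehicle, 124, 118 and 117 CPM at 6 h and 218, 257 and 195 CPM at 12 h. Each 6 h library was under all others (-0.79 ± 0.09, adjusted p = 5.2e-07 against vehicle and 0.90 ± 0.09, adjusted p = 5.1e-07 from 6 h to 12 h). Slc12a7 (KCC4), which lets potassium and chloride out, had the same shape, at 75.7, 82 and 86 CPM, 34.7, 36.7 and 40.8 CPM and 68.6, 76.3 and 72 CPM (-1.12 ± 0.09, adjusted p = 4.8e-09 and 0.95 ± 0.09, adjusted p = 2.8e-07). For neither did 12 h pass the test against vehicle (0.11 ± 0.09, adjusted p = 0.26 and -0.17 ± 0.09, adjusted p = 0.095). Slc12a4 (KCC1) did not pass at 6 h (0.16 ± 0.15, adjusted p = 0.36) and was higher at 12 h (0.77 ± 0.15, adjusted p = 0.00033), except with library totals alone. Its vehicle levels of 21.5, 32.4 and 38.1 CPM were spread in the order of the mitotic genes. Slc12a9 was higher at both times (0.95 ± 0.16, adjusted p = 6.5e-05 and 1.11 ± 0.16, adjusted p = 1.3e-05). Of the kinases that switch these cotransporters, Wnk1 was at 678, 670 and 594 CPM in vehicle, 2630, 2640 and 2950 CPM at 6 h and 4090, 4270 and 3870 CPM at 12 h. It rose in both steps (2.08 ± 0.08, adjusted p = 3.1e-13 and 2.65 ± 0.08, adjusted p = 2.1e-14 against vehicle). Stk39 (SPAK), the kinase that WNK proteins activate, was lower in all PMA libraries (-1.77 ± 0.14, adjusted p = 2e-09 and -1.36 ± 0.13, adjusted p = 5.6e-08).

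In SLC4, Slc4a11 rose at 6 h from 58.7, 58.4 and 70.3 CPM to 111, 123 and 111 CPM and was at 76.8, 84.8 and 69.8 CPM at 12 h. All 6 h libraries were above the rest (0.88 ± 0.10, adjusted p = 1.9e-07 against vehicle), whereas the 12 h difference (0.31 ± 0.10, adjusted p = 0.008) was not called under upper-quartile scaling and called lower under library totals alone. Slc4a2 (AE2), the chloride-bicarbonate exchanger, rose by a smaller amount at 6 h (0.32 ± 0.07, adjusted p = 0.00089), a rise that was not called under upper-quartile scaling and turned into a fall with library totals alone. Slc4a3 and Slc4a4 (NBCe1) were higher at 12 h (0.87 ± 0.18, adjusted p = 0.00027 and 1.10 ± 0.26, adjusted p = 0.0011), though not with library totals alone. Both were also called higher at 6 h (0.46 and 0.74). The 6 h call of Slc4a3 was lost without replicate 1 or 3 of vehicle (0.46, 0.40), or replicate 1 or 3 of PMA 6 h (0.44, 0.45). That of Slc4a4 was lost without replicate 2 of vehicle (0.57), or replicate 3 of PMA 6 h (0.56). Their 6 h calls under the other scalings are not given here. Slc4a7 (NBCn1) was slightly lower at 6 h (-0.24 ± 0.08, adjusted p = 0.01), though not without replicate 3 of vehicle (-0.19). Slc9a5 fell at both times (-1.25 ± 0.30, adjusted p = 0.0011 and -1.61 ± 0.31, adjusted p = 0.00016) and the endosomal Slc9a8 did not pass (-0.34 ± 0.17, adjusted p = 0.072 and -0.18 ± 0.17, adjusted p = 0.33).

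Calcium carriers of the plasma membrane fell steeply. Slc8a1 (NCX1), the sodium-calcium exchanger, was at 84.3, 94.6 and 92.8 CPM in vehicle, 11.7, 12.2 and 11.5 CPM at 6 h and 30.3, 25.2 and 23.6 CPM at 12 h. It was 7.68-fold lower at 6 h (-2.94 ± 0.11, adjusted p = 1.9e-13) and partly restored at 12 h (1.16 ± 0.12, adjusted p = 3.4e-07 from 6 h), still under every vehicle library. Slc24a3 (NCKX3), which exchanges calcium for sodium and potassium, was at 42.3, 43.1 and 40.9 CPM, 7.54, 8.81 and 6.65 CPM and 6.46, 6.1 and 7.02 CPM. It fell at both times (-2.46 ± 0.14, adjusted p = 2.3e-11 and -2.69 ± 0.14, adjusted p = 1.1e-11) and did not pass from 6 h to 12 h (-0.23 ± 0.15, adjusted p = 0.21). Of the sodium-phosphate cotransporters, Slc20a2 (PiT2) was near vehicle at 6 h (-0.06 ± 0.09, adjusted p = 0.52) and higher at 12 h (0.41 ± 0.09, adjusted p = 0.00031), a rise not called under the other 2 scalings, with a span that overlaps Smim19 in GRCr8. Slc20a1 (PiT1) is described with the members that changed direction.

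Zinc carriers had 16 members. Of the 10 importers (SLC39), 2 rose and 6 fell at 6 h and 1 rose and 5 fell at 12 h. Of the 6 exporters (SLC30), 3 rose and 1 fell at 6 h and 2 rose and 3 fell at 12 h. Slc39a13 (ZIP13), which releases zinc from the Golgi and vesicles, was at 33.9, 37.6 and 38.9 CPM in vehicle, 3.94, 3.82 and 3.93 CPM at 6 h and 7.28, 8.21 and 7.46 CPM at 12 h. The 3 libraries at 6 h were 9.41-fold under vehicle (-3.23 ± 0.14, adjusted p = 1.4e-12), and those at 12 h lay between (-2.26 ± 0.13, adjusted p = 7.7e-11 against vehicle). Slc39a6 (ZIP6), a plasma membrane importer, was at 337, 353 and 357 CPM in vehicle, 87.9, 92.8 and 97.5 CPM at 6 h and 72.1, 78 and 64.4 CPM at 12 h. It fell in both steps (-1.91 ± 0.08, adjusted p = 5.7e-13 at 6 h, -0.37 ± 0.08, adjusted p = 0.00086 from 6 h to 12 h). Slc39a10, the closest relative of ZIP6, fell less (-0.86 ± 0.09, adjusted p = 2e-07 and -0.53 ± 0.09, adjusted p = 6.7e-05). Slc39a11 fell from 20.1, 17.9 and 16 CPM to 4.98, 5.73 and 4.86 CPM and 4.01, 4.79 and 3.47 CPM (-1.80 ± 0.18, adjusted p = 6.3e-08 and -2.13 ± 0.18, adjusted p = 1.2e-08), with a span that overlaps Cog1 and Sstr2 in GRCr8. Slc39a14 (ZIP14), which takes up zinc and iron, was lower at both times (-1.48 ± 0.15, adjusted p = 5.5e-08 and -1.10 ± 0.14, adjusted p = 2e-06). Slc39a3 was lower at 6 h (-0.85 ± 0.21, adjusted p = 0.0014) and did not pass at 12 h (-0.27 ± 0.21, adjusted p = 0.24).

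Against this, Slc39a1 (ZIP1), a ubiquitous zinc importer, rose from 93.6, 93.4 and 87.7 CPM in vehicle to 254, 275 and 232 CPM at 6 h and 275, 259 and 321 CPM at 12 h. Every PMA library exceeded every vehicle library (1.47 ± 0.09, adjusted p = 7.4e-11 and 1.64 ± 0.09, adjusted p = 2e-11). Slc39a9 rose at 6 h (0.77 ± 0.13, adjusted p = 3.3e-05), except with library totals alone, and fell from 6 h to 12 h (-0.63 ± 0.13, adjusted p = 0.00062), when it did not pass against vehicle (0.14 ± 0.13, adjusted p = 0.35). Slc39a5 and Slc39a7 (ZIP7, which releases zinc from the endoplasmic reticulum) passed in no comparison, with 6 h values of -0.10 ± 0.16 and -0.01 ± 0.09. Among exporters, Slc30a4 (ZnT4), which fills vesicles with zinc, was at 98.3, 87.9 and 107 CPM, then 222, 229 and 232 CPM and 234, 244 and 201 CPM. It stayed high at both times (1.22 ± 0.09, adjusted p = 7.7e-10 and 1.21 ± 0.09, adjusted p = 9.8e-10). Slc30a9 rose in both steps (0.33 ± 0.09, adjusted p = 0.0025 and 0.71 ± 0.09, adjusted p = 1.1e-06 against vehicle), except that upper-quartile scaling lost the 6 h call and library totals alone turned it to -0.21 and ended the 12 h call. Slc30a5, an exporter of the early secretory pathway, fell at both times (-0.54 ± 0.10, adjusted p = 6.2e-05 and -0.56 ± 0.10, adjusted p = 4.4e-05). Its partner Slc30a6 did not pass at 6 h (-0.23 ± 0.15, adjusted p = 0.17) and fell by 12 h (-1.14 ± 0.16, adjusted p = 4.3e-06). Slc30a7, another Golgi exporter, passed at neither time (0.16 ± 0.12, adjusted p = 0.24 and 0.18 ± 0.12, adjusted p = 0.18, with the opposite sign under both other scalings). Slc30a1 (ZnT1), the exporter of the plasma membrane, changed direction and is given below.

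**Figure D3:**
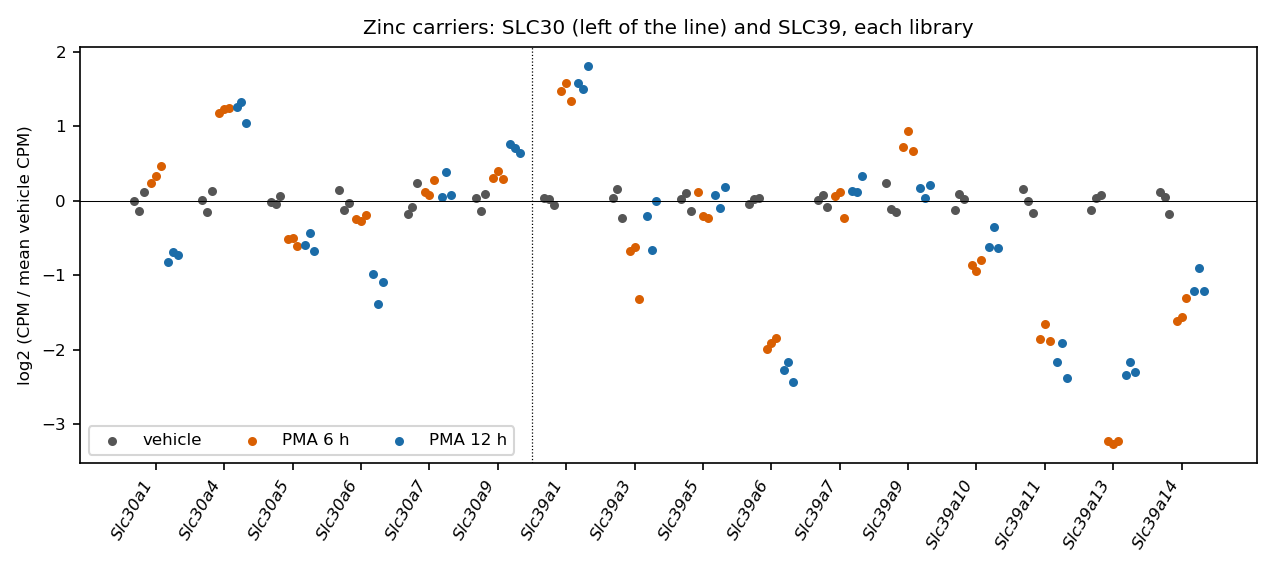
Log2 of each library's CPM over the mean vehicle CPM for the 6 SLC30 and 10 SLC39 members (x axis), 3 libraries in each of 3 groups. Slc39a13, Slc39a6, Slc39a11 and Slc39a14 lie under 0 in every PMA library, Slc39a1 and Slc30a4 above it, and Slc30a1 is above 0 at 6 h and under it at 12 h.

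Other genes of metal handling were taken from a list of 16, of which 14 could be tested. At 6 h 6 rose and 3 fell and at 12 h 8 rose and 4 fell. Over all genes tested, 37.8% rose and 39.0% fell at 6 h and 37.7% rose and 38.2% fell at 12 h. Heme oxygenase Hmox1, which frees iron from heme, was at 41.3, 49.9 and 63.5 CPM in vehicle, 283, 275 and 224 CPM at 6 h and 115, 126 and 130 CPM at 12 h (2.34 ± 0.14, adjusted p = 1.4e-08 at 6 h). The ferritin light chain Ftl1 (1.45 ± 0.24, adjusted p = 0.00069) and the copper pump Atp7a (1.43 ± 0.10, adjusted p = 7.3e-10) rose. The iron regulatory protein Aco1 (-1.97 ± 0.12, adjusted p = 7.8e-11), the ferrireductase Steap3 (-1.23 ± 0.15, adjusted p = 1.1e-06) and the transferrin receptor Tfrc (-1.19 ± 0.10, adjusted p = 2.6e-08) fell. Ireb2, the other iron regulatory protein, rose (1.41 ± 0.09, adjusted p = 1.2e-10). The rises of this list at 6 h held under both other scalings. At 12 h the rises of Ftl1 and of some unnamed genes were not called under upper-quartile scaling. With library totals alone Hmox1 was still called higher at 12 h, but Ftl1, Ireb2 and Atp7a were not. Some unnamed genes were called lower there. Metallothioneins, which bind free zinc and copper, did not pass at 6 h (0.85 ± 0.38, adjusted p = 0.076 for Mt1a and 0.04 ± 0.20, adjusted p = 0.85 for Mt2A), and Mt2A was lower at 12 h (-1.07 ± 0.21, adjusted p = 0.0004).

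Carriers of iron, copper, magnesium and heme (8 members) had 2 rises and 3 falls at 6 h, and 5 rises and no fall at 12 h. Slc41a1, which exports magnesium, was at 34.4, 30.7 and 32.7 CPM in vehicle, 102, 105 and 105 CPM at 6 h and 63.3, 44.2 and 56.9 CPM at 12 h. All PMA libraries were above vehicle, with the peak at 6 h (1.67 ± 0.11, adjusted p = 2.6e-10 at 6 h and 0.75 ± 0.11, adjusted p = 8.8e-06 at 12 h). Slc41a2 rose late, from 7.77, 6.4 and 7.81 CPM to 13, 14.6 and 13.7 CPM (0.91 ± 0.17, adjusted p = 0.00011), and Slc41a3 was lower at 6 h (-0.68 ± 0.20, adjusted p = 0.005). Slc11a2 (DMT1), the importer of ferrous iron, did not pass at 6 h (0.09 ± 0.09, adjusted p = 0.39) and was at 70.7, 82 and 69.1 CPM at 12 h, above 51.7, 48.3 and 49.7 CPM in vehicle (0.57 ± 0.09, adjusted p = 1.9e-05). The iron exporter Slc40a1 (ferroportin) did not pass in any comparison, with 4.57, 2.84 and 1.86 CPM in vehicle and 3.8, 5.14 and 6.07 CPM at 6 h (0.69 ± 0.31, adjusted p = 0.054). The copper importer Slc31a1 (CTR1) rose by a like amount at both times (0.56 ± 0.10, adjusted p = 8.8e-05 and 0.58 ± 0.10, adjusted p = 6.7e-05). The heme transporter Slc48a1 was slightly lower at 6 h (-0.30 ± 0.11, adjusted p = 0.024), a call lost without replicate 2 of vehicle (-0.23), or replicate 3 of PMA 6 h (-0.24). With library totals alone the rises of Slc11a2, Slc31a1 and Slc41a2 at 12 h, of Slc41a1 at 12 h and of Slc31a1 at 6 h were no longer called.

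Mitochondrial carriers, grouped by the family number SLC25 alone, were the largest group, with 29 members. The number does not place each of them in the inner mitochondrial membrane. Of the 29, 6 rose and 14 fell at 6 h and 7 rose and 13 fell at 12 h. The median of this group was -0.50 at 6 h and -0.18 at 12 h. The adenine nucleotide translocases, which swap ADP for ATP, both fell. Slc25a4 (ANT1) was at 166, 185 and 182 CPM in vehicle, 64.2, 66.8 and 58.3 CPM at 6 h and 92.4, 81.8 and 109 CPM at 12 h. The groups did not overlap, and the fall at 6 h (-1.49 ± 0.10, adjusted p = 2.4e-10) was partly made up by 12 h (0.58 ± 0.10, adjusted p = 0.0001 from 6 h). Slc25a5 (ANT2) was at 241, 249 and 250 CPM, 174, 165 and 146 CPM and 177, 174 and 191 CPM (-0.61 ± 0.08, adjusted p = 1.1e-06 and -0.45 ± 0.08, adjusted p = 3.8e-05). The phosphate carrier Slc25a3, which supplies ATP synthase, was at 431, 458 and 446 CPM, 471, 473 and 459 CPM and 450, 450 and 410 CPM. It passed in no comparison (0.07 ± 0.07, adjusted p = 0.36 at 6 h, with the opposite sign under both other scalings). The outer membrane pores Vdac1, Vdac2 and Vdac3 were lower at 6 h (-0.58 ± 0.07, -0.33 ± 0.07 and -0.56 ± 0.08).

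Slc25a15, which brings ornithine into the mitochondrion for the urea cycle, was at 9.75, 8.55 and 9.61 CPM in vehicle, 1.38, 1.4 and 1.21 CPM at 6 h and 1.63, 2.47 and 2.25 CPM at 12 h. Every PMA library was well under vehicle (-2.80 ± 0.25, adjusted p = 1.6e-08 and -2.14 ± 0.24, adjusted p = 3.2e-07). The coenzyme A carrier Slc25a42 fell at both times (-2.14 ± 0.26, adjusted p = 1.2e-06 and -1.89 ± 0.26, adjusted p = 4.9e-06). Slc25a16 fell too (-1.51 ± 0.13, adjusted p = 9.2e-09 and -1.20 ± 0.13, adjusted p = 1.6e-07), and their spans overlap Tmem161a and Dna2 in GRCr8. Slc25a32, which carries folate and FAD, fell in both steps, from 16.4, 15.5 and 15.5 CPM to 6.5, 6.83 and 10.3 CPM and 3.61, 4.36 and 4.68 CPM (-1.91 ± 0.20, adjusted p = 1.6e-07 at 12 h). Both mitoferrins, which bring iron in for heme and iron-sulfur clusters, were lower at 6 h (-1.14 ± 0.17, adjusted p = 1.3e-05 for Slc25a37 and -0.62 ± 0.14, adjusted p = 0.00063 for Slc25a28). Slc25a37 was also called lower at 12 h (-0.41). That call was lost without replicate 2 or 3 of vehicle (-0.33, -0.40), or replicate 2 or 3 of PMA 12 h (-0.38, -0.38). The citrate carrier Slc25a1 fell at 6 h (-0.63 ± 0.10, adjusted p = 1.3e-05) and did not pass at 12 h (-0.18 ± 0.10, adjusted p = 0.1). The dicarboxylate carrier Slc25a10 fell at both times (-0.80 ± 0.16, adjusted p = 0.0002 and -0.80 ± 0.16, adjusted p = 0.00022). Its vehicle levels of 22.4, 29.3 and 35.4 CPM stood in the order of the mitotic genes, whose part was not tested. Slc25a46, an outer membrane protein of mitochondrial dynamics, was lower at 6 h (-0.85 ± 0.11, adjusted p = 1.8e-06). Slc25a30 fell in both steps (-1.0 ± 0.10, adjusted p = 5.1e-08 at 12 h).

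Slc25a25, a calcium-regulated carrier of ATP-Mg and phosphate, was at 19.6, 22.2 and 20 CPM in vehicle, 62.7, 58.5 and 55.8 CPM at 6 h and 56.3, 56.5 and 57.4 CPM at 12 h. It was raised at both times (1.52 ± 0.09, adjusted p = 1.2e-10 and 1.46 ± 0.09, adjusted p = 2.3e-10), with a span that overlaps Naif1 in GRCr8. Its relative Slc25a24 did not pass at 6 h (0.14 ± 0.07, adjusted p = 0.096) and was higher at 12 h (0.51 ± 0.07, adjusted p = 5.7e-06), except with library totals alone. Slc25a33, which imports pyrimidine nucleotides, rose at both times (0.91 ± 0.15, adjusted p = 3.4e-05 and 0.74 ± 0.15, adjusted p = 0.00033). Slc25a14 rose too (1.04 ± 0.20, adjusted p = 0.00015 and 1.04 ± 0.20, adjusted p = 0.00017). Slc25a45 went from 1.9, 2.49 and 1.22 CPM in vehicle to 5.47, 4.99 and 3.64 CPM at 6 h and 4.35, 5.59 and 4.86 CPM at 12 h (1.31 ± 0.29, adjusted p = 0.00058 and 1.38 ± 0.29, adjusted p = 0.00038). With library totals alone the 12 h rises of Slc25a33 and Slc25a14 were not called. The glutathione carrier Slc25a39 was 0.26 ± 0.07 higher at 6 h (adjusted p = 0.0037), a rise that was lost under upper-quartile scaling and turned to a fall with library totals alone. Slc25a38, the glycine carrier of heme synthesis, rose (0.50 ± 0.15, adjusted p = 0.0051 and 0.36 ± 0.15, adjusted p = 0.034) under TMM but under neither other scaling. The 12 h rise was also lost without replicate 2 or 3 of vehicle (0.38, 0.30), or replicate 2 or 3 of PMA 12 h (0.37, 0.31). Slc25a40 fell at both times (-0.91 ± 0.26, adjusted p = 0.0038 and -1.44 ± 0.27, adjusted p = 0.00012). Slc25a26, which imports S-adenosylmethionine, fell by 12 h (-0.93 ± 0.30, adjusted p = 0.0099), though not without replicate 3 of PMA 12 h (-0.74). Slc25a17, Slc25a20, Slc25a27, Slc25a35 and Slc25a44 passed in no comparison, with 6 h values from -0.34 to 0.24.

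**Figure D4:**
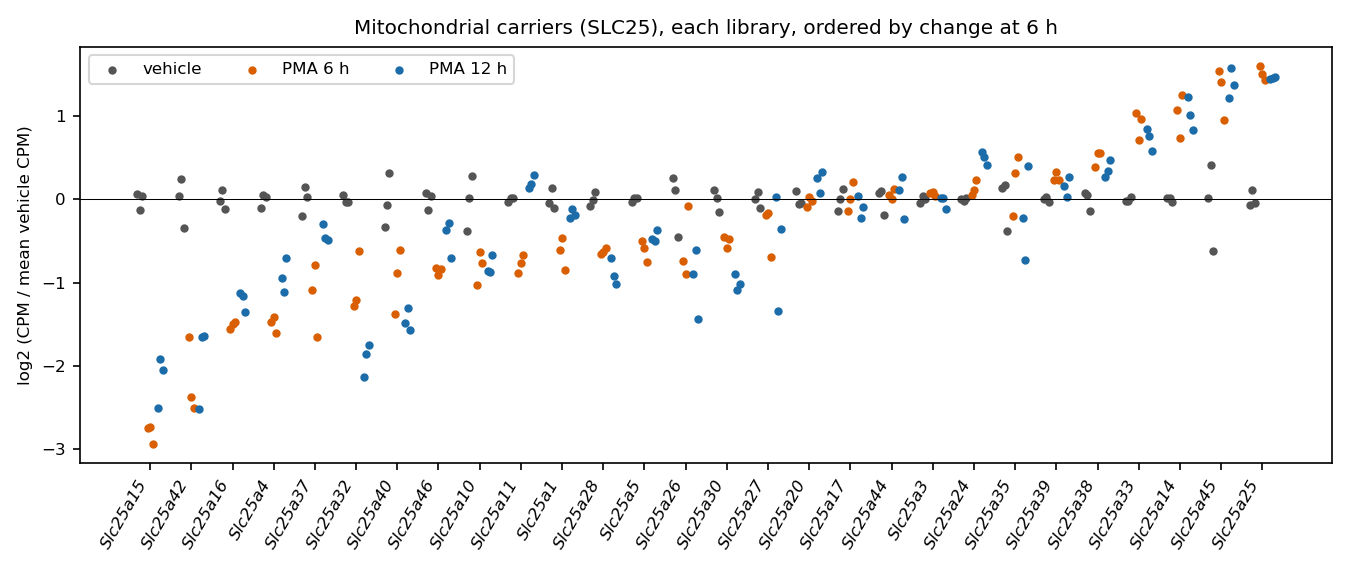
Log2 of each library's CPM over the mean vehicle CPM for the SLC25 members reported here, ordered by their change at 6 h. Slc25a15 and Slc25a42 at the left are lowest in PMA, Slc25a25 and Slc25a45 at the right are highest, and Slc25a11 is a member whose 6 h libraries lie under 0 and whose 12 h libraries lie above it.

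Of the 7 carriers that feed the endoplasmic reticulum and Golgi, 1 rose and 4 fell at both 6 h and 12 h, with medians of -1.10 and -0.88. Slc35a1, which brings CMP-sialic acid into the Golgi, was at 42, 41 and 39.5 CPM in vehicle, 12.2, 13.9 and 14.3 CPM at 6 h and 23, 20.6 and 21.2 CPM at 12 h. No libraries overlapped between groups (-1.60 ± 0.11, adjusted p = 7e-10 and -0.92 ± 0.11, adjusted p = 7.1e-07), and its span overlaps Rars2 in GRCr8. Slc33a1, which carries acetyl-CoA into the endoplasmic reticulum, fell from 55.2, 60.4 and 59.2 CPM to 23.7, 21 and 23.4 CPM and 26.1, 32.7 and 27.9 CPM (-1.36 ± 0.11, adjusted p = 3e-09 and -1.01 ± 0.11, adjusted p = 1.4e-07). Slc35a4 (-1.10 ± 0.09, adjusted p = 2.4e-09 and -0.88 ± 0.08, adjusted p = 4.9e-08) and Slc35a5 (-1.56 ± 0.22, adjusted p = 3.8e-06 and -1.02 ± 0.21, adjusted p = 0.0003) fell as well. Slc35a2, the UDP-galactose carrier, rose slightly at both times (0.27 ± 0.11, adjusted p = 0.036 and 0.31 ± 0.11, adjusted p = 0.017), but under upper-quartile scaling neither rise was called, and with library totals alone both were falls. The 6 h rise was also lost without replicate 2 or 3 of vehicle (0.27, 0.17), or replicate 1 or 2 of PMA 6 h (0.26, 0.23) and the 12 h rise without replicate 3 of vehicle (0.22), or replicate 3 of PMA 12 h (0.27). The UDP-GlcNAc carrier Slc35a3 and the glucose-6-phosphate carrier Slc37a4 passed at neither time (-0.07 ± 0.11, adjusted p = 0.57 and -0.16 ± 0.13, adjusted p = 0.26 at 6 h). At 6 h, 7 of 19 further carriers with symbols outside the pattern rose and 7 fell (36.8% each way), against 37.8% and 39.0% of all genes. At 12 h, 8 rose and 7 fell (42.1% and 36.8%), against 37.7% and 38.2%. Not all of these rises held under the other scalings. Slc35f5 (2.17 ± 0.09, adjusted p = 5.3e-13) and the organic anion transporter Slco4a1 (2.91 ± 0.11, adjusted p = 2.8e-13) were among the rises at 6 h. Slc35b4 (-2.20 ± 0.17, adjusted p = 2.1e-09) and Slc35d1 (-1.60 ± 0.15, adjusted p = 2.8e-08), which carry nucleotide sugars, were among the falls.

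Amino acid and peptide carriers left in the set (17 members) had 5 rises and 9 falls at 6 h and 6 rises and 9 falls at 12 h. Slc38a3 (SNAT3), a glutamine transporter, was at 54.3, 67.1 and 72.7 CPM in vehicle, 7.06, 11 and 7.63 CPM at 6 h and 9.05, 9.22 and 7.98 CPM at 12 h. It was 7.58-fold lower at 6 h, with a like fall at 12 h (-2.92 ± 0.16, adjusted p = 2.3e-11 and -2.88 ± 0.16, adjusted p = 3.3e-11). Slc1a4 (ASCT1), which exchanges neutral amino acids, fell from 36, 46.1 and 53 CPM to 14.1, 10.9 and 10.2 CPM and 11.5, 16.9 and 10.8 CPM (-1.94 ± 0.19, adjusted p = 1.5e-07 and -1.78 ± 0.19, adjusted p = 4e-07). The vehicle levels of both rose in the order of the mitotic genes, whose part was not tested. Slc43a2 (LAT4), a facilitator of branched-chain amino acids, fell from 9.84, 10.5 and 10.4 CPM to 3.6, 2.72 and 2.43 CPM and 1.29, 0.654 and 2.34 CPM (-1.82 ± 0.28, adjusted p = 1.6e-05 and -2.87 ± 0.32, adjusted p = 2.5e-07). Its step from 6 h to 12 h (-1.05 ± 0.34, adjusted p = 0.016) was not called without replicate 1 of PMA 6 h (-0.87), or replicate 1 or 2 of PMA 12 h (-0.99, -0.70). Slc7a8 (LAT2), Slc7a6 and Slc38a1 were lower at both times, with 6 h values of -0.94 ± 0.10, -0.72 ± 0.14 and -1.25 ± 0.21. Slc38a9, the lysosomal arginine sensor that signals to mTORC1, was lower at 6 h (-1.09 ± 0.20, adjusted p = 7.9e-05). It was also called lower at 12 h (-0.47), though not without replicate 1 or 2 of vehicle (-0.35, -0.50). That call was lost as well without replicate 1, 2 or 3 of PMA 12 h (-0.48, -0.49, -0.43). Slc38a6 fell at both times (-0.89 ± 0.23 at 6 h), and Slc36a4 and the taurine transporter Slc6a6 passed in no comparison (0.20 ± 0.16, adjusted p = 0.27 and 0.09 ± 0.20, adjusted p = 0.7 at 6 h).

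Slc6a8, the creatine transporter, rose from 97, 102 and 85.8 CPM in vehicle to 215, 218 and 203 CPM at 6 h and 188, 184 and 202 CPM at 12 h. Every PMA library was above vehicle (1.16 ± 0.08, adjusted p = 3e-10 and 1.01 ± 0.08, adjusted p = 2.1e-09). Slc7a7 (y+LAT1), which exports cationic amino acids in exchange for neutral ones and sodium, was near the limit with a mean of 59 reads, at 1.42, 0.43 and 2.76 CPM, 6.3, 7.12 and 4.34 CPM and 4.29, 5.59 and 2.86 CPM. It rose (1.97 ± 0.47, adjusted p = 0.0019 and 1.5 ± 0.48, adjusted p = 0.012), by 2.66 and 2.20 without vehicle replicate 3, and the 12 h rise was not called without replicate 2 of PMA 12 h (1.26) or with library totals alone. The lysosomal carriers Slc36a1 (0.87 ± 0.15, adjusted p = 5.8e-05) and Slc38a7 (0.72 ± 0.14, adjusted p = 0.00013) were higher at 6 h, except with library totals alone. The glutamate transporter Slc1a1 was higher at 12 h (0.45 ± 0.17, adjusted p = 0.024), though not under the other 2 scalings and not without replicate 2 or 3 of vehicle (0.37, 0.31), or replicate 2 of PMA 12 h (0.32). Of the transporters left out by name, 3 of 8 rose and 4 fell at 6 h, against 37.8% and 39.0% of all genes. At 12 h, 2 rose and 6 fell, against 37.7% and 38.2%. The 6 h rise of Slc7a11 was not called under the other scalings. Slc6a14, a carrier of neutral and cationic amino acids, was at 0.432, 1.12 and 2.39 CPM in vehicle and 492, 549 and 539 CPM at 6 h.

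Vitamin and nucleoside carriers (8 members) had 1 rise at each time and 5 falls at 6 h and 4 at 12 h. Slc23a3, an orphan relative of the vitamin C transporters, was at 0.734, 1.03 and 0.425 CPM in vehicle, 12.3, 12 and 11.4 CPM at 6 h and 4.08, 4.87 and 2.95 CPM at 12 h. It was 15.9-fold higher at 6 h (3.99 ± 0.29, adjusted p = 1.1e-09) and had come down by 12 h (-1.58 ± 0.25, adjusted p = 5.5e-05 from 6 h), still above every vehicle library. It met the limit on mean reads only with PMA, with a mean of 16.3 reads in vehicle and 180 at 6 h. Slc23a2, the vitamin C transporter of most tissues, fell from 24, 22.7 and 23.8 CPM to 9.89, 8.52 and 10.3 CPM and 10.3, 10.9 and 11.3 CPM (-1.29 ± 0.14, adjusted p = 1.5e-07 and -1.12 ± 0.14, adjusted p = 9.6e-07). The folate carriers Slc19a1 (-1.09 ± 0.15, adjusted p = 2.7e-06) and Slc46a1 (-2.07 ± 0.27, adjusted p = 1.6e-06) were lower at 6 h. Slc46a1 was at 6.78, 6.88 and 4.78 CPM, 1.45, 1.62 and 1.33 CPM and 3.4, 3.12 and 3.47 CPM in the 3 groups, a partial return by 12 h (1.18 ± 0.28, adjusted p = 0.002). The riboflavin carrier Slc52a2 (-0.61 ± 0.20, adjusted p = 0.011) and the lysosomal nucleoside carrier Slc29a3 (-1.36 ± 0.26, adjusted p = 0.00011) were lower at 6 h, the former not without replicate 2 of vehicle (-0.44). The thiamine carrier Slc19a2 passed in no comparison (0.05 ± 0.12, adjusted p = 0.71 at 6 h). Slc29a4, a monoamine and nucleoside carrier, passed against vehicle at neither time (-0.43 ± 0.26, adjusted p = 0.14 and 0.31 ± 0.25, adjusted p = 0.27).

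Organic ion, vesicular and lysosomal carriers (8 members) had 4 rises and 2 falls at 6 h and 4 rises and 1 fall at 12 h. All 3 SLC17 members rose in all 3 comparisons. Slc17a1 (NPT1), an organic anion and urate transporter best known from kidney, was at 2.46, 1.8 and 2.18 CPM in vehicle, 23.1, 28.7 and 21.7 CPM at 6 h and 48.8, 52.9 and 57.4 CPM at 12 h. The groups were far apart, 11.4-fold at 6 h (3.51 ± 0.16, adjusted p = 2.1e-12) and 24.6-fold at 12 h (4.62 ± 0.16, adjusted p = 5.6e-14). Slc17a1 met the limit on mean reads only with PMA, with a mean of 46.7 reads in vehicle. Its neighbour on chromosome 17, Slc17a3 (NPT4), whose promoter stands beside it above, was at 16.9, 20.8 and 19.5 CPM, 47.1, 53 and 44.5 CPM and 72.7, 70.7 and 63.6 CPM. It rose in the same 2 steps (1.34 ± 0.11, adjusted p = 4.2e-09 and 1.86 ± 0.11, adjusted p = 5.8e-11). Slc17a5 (sialin), which exports sialic acid from lysosomes, rose from 12.3, 13.5 and 11.6 CPM to 27.9, 23.9 and 26.2 CPM and 31.2, 35.3 and 32.3 CPM (1.06 ± 0.12, adjusted p = 3e-07 and 1.40 ± 0.12, adjusted p = 8.7e-09). Its step from 6 h to 12 h was not called without replicate 2 of PMA 6 h (0.29), or replicate 2 of PMA 12 h (0.29) or with library totals alone. Slc22a18 rose (0.63 ± 0.24, adjusted p = 0.022 and 0.84 ± 0.24, adjusted p = 0.004), though with library totals alone neither rise was called. The 6 h rise was also lost under upper-quartile scaling and without replicate 1 of vehicle (0.50), or replicate 3 of PMA 6 h (0.49). Slc22a15 was lower at 6 h (-0.69 ± 0.14, adjusted p = 0.0003) and Slc22a23 at 12 h (-0.60 ± 0.12, adjusted p = 0.00027). Slc22a23 was also called lower at 6 h (-0.28), though not without replicate 1 of vehicle (-0.13). That call was lost as well without replicate 1, 2 or 3 of PMA 6 h (-0.27, -0.28, -0.30). The vesicular monoamine transporter Slc18a2 and the carnitine transporter Slc22a5 passed at neither time (-0.32 ± 0.26, adjusted p = 0.28 and 0.18 ± 0.30, adjusted p = 0.6 at 6 h).

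The 4 members that are not carriers included Slc9a3r1 (NHERF1, current symbol Nherf1), the PDZ scaffold that ties carriers to ezrin and the cytoskeleton. It was at 194, 171 and 173 CPM in vehicle, 487, 504 and 435 CPM at 6 h and 287, 288 and 290 CPM at 12 h. It peaked at 6 h and stayed above vehicle (1.41 ± 0.08, adjusted p = 2.3e-11 and 0.69 ± 0.08, adjusted p = 3e-07), although with library totals alone the 12 h rise was not called. Ezrin (Ezr) rose at both times (0.65 ± 0.07, adjusted p = 3.8e-07 and 0.64 ± 0.07, adjusted p = 4.8e-07), though with library totals alone neither rise was called. Slc7a6os, the neighbour of Slc7a6, was at 23.1, 24.7 and 23.8 CPM, 77.1, 81.6 and 85.1 CPM and 82.3, 82.3 and 83.8 CPM (1.77 ± 0.08, adjusted p = 3.2e-12 and 1.80 ± 0.08, adjusted p = 3.1e-12), while Slc7a6 itself fell. Slc9a3r2 was lower at 12 h (-0.76 ± 0.22, adjusted p = 0.0051), and Slc4a1ap passed in no comparison (0.05 ± 0.13, adjusted p = 0.73 at 6 h). At 6 h, 4 of 23 listed partner genes that serve the carriers rose and 14 fell (17.4% and 60.9%), against 37.8% and 39.0% of all genes. At 12 h, 6 rose and 10 fell (26.1% and 43.5%), against 37.7% and 38.2%. Not all of these rises held under the other scalings. The sodium pump subunit Atp1b1 (-1.51 ± 0.20, adjusted p = 2.1e-06) was among the falls.

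Over the time course, 34 members (24.8%) were called at 6 h and then called the other way from 6 h to 12 h, with no call on the opposite side of vehicle at 12 h, against 24.9% of all genes tested. The same call at both times with no call between them was made for 44 members (32.1%, against 32.0%). Calls in the same direction in both steps were made for 13 (9.49%, against 13.4%), and 12 (8.76%, against 8.42%) had no call at 6 h and calls in 1 direction at 12 h against both vehicle and 6 h. Of the remaining members, 7 are given next, and 21 of the other 27 were called in no comparison. Of the 34, 26 had fallen at 6 h and 8 had risen. No such split was made for all genes tested, so it is read no further.

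In 7 members (5.11%), against 3.09% of all genes tested, the calls at 6 h and 12 h were in opposite directions. Slc20a1 (PiT1), the main phosphate importer of many cells, was at 214, 228 and 227 CPM in vehicle, 543, 530 and 498 CPM at 6 h and 146, 156 and 135 CPM at 12 h. The groups did not overlap: it was 2.35-fold higher at 6 h (1.23 ± 0.07, adjusted p = 7.6e-11) and 1.53-fold lower at 12 h (-0.61 ± 0.07, adjusted p = 8.3e-07), and these calls held under all 3 scalings. Slc6a9 (GlyT1), a glycine transporter, was at 9.37, 9.54 and 13.6 CPM, 16.3, 16.5 and 20.6 CPM and 6.06, 5.81 and 8.06 CPM. It rose and then fell under vehicle (0.72 ± 0.18, adjusted p = 0.0017 and -0.71 ± 0.20, adjusted p = 0.0035), although with library totals alone the rise was not called. Slc5a10 (SGLT5), a mannose and fructose cotransporter, had the same order, with 31.5, 34.3 and 26.7 CPM, 50.6, 42.2 and 38.6 CPM and 19.7, 17.6 and 22.5 CPM (0.50 ± 0.13, adjusted p = 0.0018 and -0.63 ± 0.13, adjusted p = 0.00039). Its 6 h rise was not called under either other scaling. Slc30a1 (ZnT1) was at 14.7, 13.4 and 16 CPM, 17.4, 18.5 and 20.3 CPM and 8.3, 9.15 and 8.84 CPM. The 6 h rise (0.35 ± 0.14, adjusted p = 0.029) was lost under both other scalings and without replicate 1 or 2 of vehicle (0.35, 0.28), or replicate 2 or 3 of PMA 6 h (0.36, 0.27). The 12 h libraries lay under every vehicle library (-0.75 ± 0.15, adjusted p = 0.00018).

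In the other order, Slc31a2 (CTR2), a copper carrier of endosomes and lysosomes, was at 20.4, 21.5 and 19.4 CPM in vehicle, 14.6, 14.4 and 17.7 CPM at 6 h and 46.4, 49.3 and 52.4 CPM at 12 h. It dipped at 6 h (-0.39 ± 0.12, adjusted p = 0.0058) and was 2.41-fold above vehicle at 12 h (1.27 ± 0.11, adjusted p = 1.5e-08). Slc15a4, a lysosomal carrier of histidine and peptides, was at 38, 43.3 and 37.7 CPM, 30.8, 36.7 and 33.6 CPM and 57.8, 64 and 64 CPM. The 12 h libraries were above all others (0.64 ± 0.10, adjusted p = 1.4e-05), though not called with library totals alone. The small 6 h fall (-0.24 ± 0.10, adjusted p = 0.041) was lost without replicate 2 of vehicle (-0.17), or replicate 1 or 3 of PMA 6 h (-0.17, -0.25). Slc25a11, the oxoglutarate carrier of the malate-aspartate shuttle, was at 76.9, 79.6 and 79.7 CPM, 42.8, 46.4 and 49.7 CPM and 86.8, 89.9 and 96.3 CPM. The 6 h libraries lay under all others (-0.76 ± 0.08, adjusted p = 2.2e-07). The 12 h rise (0.21 ± 0.08, adjusted p = 0.029) was lost without replicate 1 or 2 of vehicle (0.19, 0.21), or replicate 3 of PMA 12 h (0.17). It was -0.06 under upper-quartile scaling and was called a fall with library totals alone. The spans of Slc6a9, Slc5a10, Slc15a4 and Slc25a11 overlap Ccdc24, Fam83g, Glt1d1 and Gp1ba in GRCr8.

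**Figure D5:**
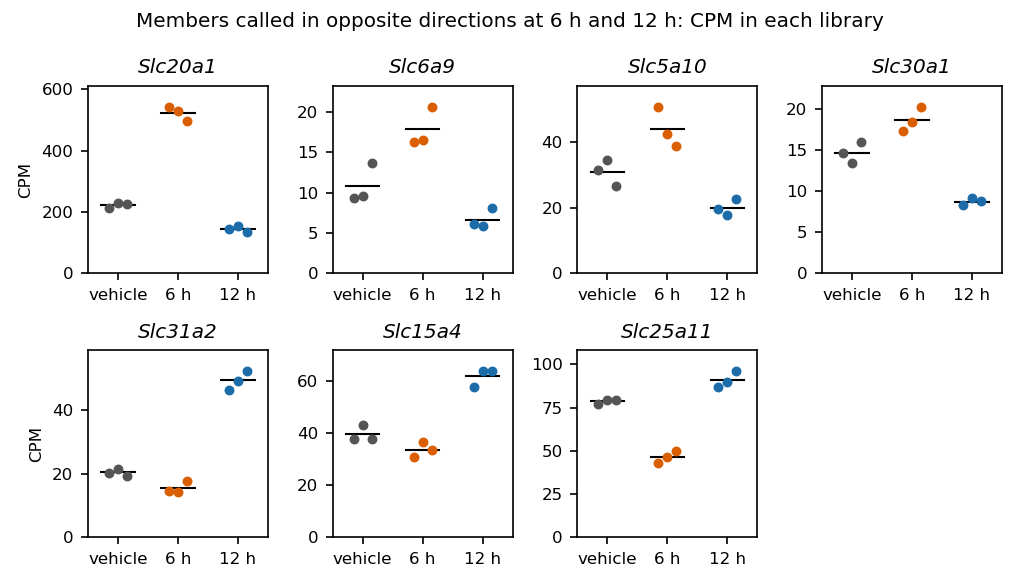
CPM of the 7 members called in opposite directions at 6 h and 12 h, in each library (y axis from 0, a separate scale for each gene; x axis, the 3 groups; black bars, group means). Slc20a1, Slc6a9, Slc5a10 and Slc30a1 are highest at 6 h, and Slc31a2, Slc15a4 and Slc25a11 are lowest there.

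Around the limit, the symbols just inside were Slc26a9 (a mean of 50.7 reads), Slc22a5 (58) and Slc7a7 (59), and those just outside were Slc7a4 (41.7), Slc37a1 (41.8) and Slc22a17 (47.6). Of the 171 symbols under it, 50 had no read in any library and 33 were tested.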

How the data were processed

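RNA was sequenced from 9 libraries of cultured rat cells. The deposited values are raw read counts per gene for each library, whole numbers made by the authors with STAR 2.7.5b on rn6, per the submitters' processing notes, which also name DESeq2. The unstranded column was used, since both strand columns held like shares (49.8% to 50.3%), and rows that name no gene were left out (67.8% to 71.3% of reads lay in genes). A further table of 9 normalized columns was not used. Members, roles and gene lists were chosen with earlier results of these data known. Genes passing filterByExpr with a minimum count of 10 (10128 genes) were tested with edgeR 4.0.16 (quasi-likelihood F test, TMM, robust, all 9 libraries, group only, no block) in R 4.3.3, with Benjamini-Hochberg adjustment over all of them, at 0.05. SE is the size of the log2 fold change over the square root of F. Named first were the members with the largest changes whose groups did not overlap, every member of SLC2, SLC16, SLC30 and SLC39, the most abundant member of the larger families and members with opposite calls, and then the others. Alternatives were DESeq2 1.42.0, limma-voom (limma 3.58.1), upper-quartile and no scaling, other filters and limits, a replicate block and leaving out each library. Replicates of a group differed by more than counting noise (chi-square over degrees of freedom 3.88 to 27.8), and the common dispersion was 0.0125. Gene spans and promoters come from RefSeq GRCr8 (135 members matched by symbol and 2 by synonym). Levels are not compared between genes, since no transcript lengths of the authors' build were used here. A few members and listed genes are not reported here by name, though they stay in the counts.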

Additional observations from a re-analysis of the deposited data

Results flagged for a closer look

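Results are listed here where the effects at 6 h and 12 h against vehicle were called in opposite directions. The size of the difference between the times comes from the direct comparison of 12 h with 6 h, whose log2 fold changes follow. They were -1.85 for Slc20a1 (adjusted p = 1.8e-11), -1.43 for Slc6a9 (adjusted p = 1.2e-05), -1.14 for Slc5a10 (adjusted p = 2.5e-06) and -1.10 for Slc30a1 (adjusted p = 9.2e-06), which were higher at 6 h. They were 1.66 for Slc31a2 (adjusted p = 7e-09), 0.97 for Slc25a11 (adjusted p = 7.9e-08) and 0.88 for Slc15a4 (adjusted p = 1.8e-06), which were higher at 12 h. The groups at 6 h and 12 h did not overlap in any of the 7, and 58.0% of all genes tested did not overlap between those groups. The 7 were picked for calls on opposite sides of the same vehicle libraries. Their separation and the p-values of the direct comparison largely follow from that choice and add no support. Groups of 3 libraries were too small for a check of single outlying libraries.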

How the results depend on the processing

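With upper-quartile scaling the median log2 fold change of the members was -0.50 at 6 h and -0.44 at 12 h. With library totals alone it was -0.78 at 6 h, -0.75 at 12 h and 0.06 from 6 h to 12 h, with 21 members higher and 97 lower at 6 h and 18 higher and 95 lower at 12 h. Of the 64 members picked by the naming rule, those whose sign changed and that were called under TMM, under the alternative or under both are given next. Under upper-quartile scaling these were the 6 h values of Slc25a3 (-0.19) and Slc44a1 (-0.22) and the 12 h value of Slc25a11 (-0.06), and further values, such as those of Slc30a7 (-0.09 and -0.08), changed sign with no call under either scaling. With library totals alone the 6 h values of Slc16a11 (-0.42), Slc25a3 (-0.47), Slc30a1 (-0.19), Slc30a7 (-0.37), Slc30a9 (-0.21), Slc44a1 (-0.50) and Slc5a10 (-0.04) changed sign, as did the 12 h values of Slc12a2 (-0.46), Slc25a11 (-0.37), Slc30a7 (-0.39), Slc39a5 (-0.52), Slc39a7 (-0.39) and Slc39a9 (-0.44). Among the other members, rises called under TMM were called falls with library totals alone for Slc4a2 (-0.22), Slc25a39 (-0.27) and Slc35a2 (-0.27) at 6 h and for Slc35a2 (-0.27) and Slc4a11 (-0.27) at 12 h. The cause was not tested. With each library left out in turn, the median at 6 h ran from -0.28 to -0.23, and none of the 1728 values of the 64 members changed sign with a call. With the 133 carriers alone, a setting chosen after seeing the data, the median at 6 h was -0.28. Of 192 values of the 64 members, 188 kept their direction and call with DESeq2, 185 with limma-voom and 192 with a filter at a mean of 50 reads. A fit with the replicate number as a block called 101, 99 and 65 members in the 3 comparisons. Libraries of the same replicate number showed no sign of a shared deviation from their group means. Over 9 pairs of the same number the correlation of these deviations ran from -0.11 to 0.03. Over 18 other pairs it ran from -0.07 to 0.09. Such values cannot tell whether the libraries were paired by design. Members with few reads in a group, such as Slc26a9 with a mean of 2.67 reads in vehicle, have the least certain fold changes.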
